A study of Mus musculus with 6 samples.

Results

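Mineral forms where phosphate is plentiful and pyrophosphate, a strong inhibitor of hydroxyapatite growth, is removed. The genes described here set that balance. They encode the alkaline phosphatase that splits pyrophosphate, the enzyme and the exporter that supply it, enzymes of lipid breakdown in mineralizing matrix, sodium-coupled phosphate carriers, and a membrane peptidase whose loss causes phosphate wasting. In teeth these proteins serve both the odontoblasts that lay down dentin and the cells of the enamel organ. The 9 genes were Alpl, Enpp1, Ank, Phospho1, Slc20a1, Slc20a2, Slc34a2, Smpd3 and Phex, chosen by name for these roles. Of the 9 names 8 were found in the normalized table, out of 48709 gene rows counted, and all 8 passed the filter on low counts. The 9th, Phospho1, was found in the count table through its gene ID and did not pass.

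RNA came from first molar tooth germs of C57BL/6 mice at postnatal day 7. There were 3 libraries from Gpr115-/- mice (Gpr115-KO) and 3 from wild-type littermates (WT), sequenced as paired reads of 150 nt, with 8317302 to 11122821 counts a library. Gpr115 is an adhesion-type receptor that signals through G proteins, and its gene now bears the symbol Adgrf4. The study asked what its loss changes in enamel-forming tissue. Which exons were deleted, the sex of the mice and any pooling of germs are not stated in the labels. The p-values therefore describe the spread among these 6 libraries, which may be partly technical. The samples are whole germs, in which fewer cells of a type and less RNA per cell cannot be told apart.

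Across 16011 genes tested, edgeR's quasi-likelihood test called 0.15% at an adjusted p under 0.05, 0.0375% higher and 0.112% lower in Gpr115-KO. An unadjusted p under 0.05 was found in 12.3%, with 4.85% higher and 7.48% lower. The libraries of the genotypes did not overlap in 17.5% of genes, with 8.55% higher and 8.99% lower. The targeted Adgrf4 had 39.2, 20.6 and 27.5 CPM (counts scaled to a library of 1e6) in the Gpr115-KO libraries, against 67.1, 62.5 and 67.5 CPM in WT. Its log2 fold change was -1.18 (SE 0.21), short of the call in edgeR (adjusted p = 0.0887) and past it in DESeq2 (adjusted p = 0.00049). Without Gpr115-KO replicate 1 it was -1.45 and past the call in edgeR (adjusted p = 0.0143), in a range of 7.4e-07 to 0.325 over 15 alternatives. That library had the highest Adgrf4 level of its genotype, so leaving it out makes the fold change more negative by construction. With any other single library left out, edgeR's adjusted p was 0.143 to 0.325.

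None of the 8 tested phosphate and pyrophosphate genes was called, either by edgeR (adjusted p 0.347 to 0.951) or by DESeq2. At an unadjusted p under 0.05 there was 1 of 8, Slc20a1, against the 12.3% of all genes, and the genotypes' libraries overlapped in all 8. Of the 8 fold changes 4 were positive, and their median was -0.02 on the log2 scale, beside 0.01 over all genes tested. None of the 9 genes lies on chromosome 17, the chromosome of Adgrf4.

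**Figure D1:**
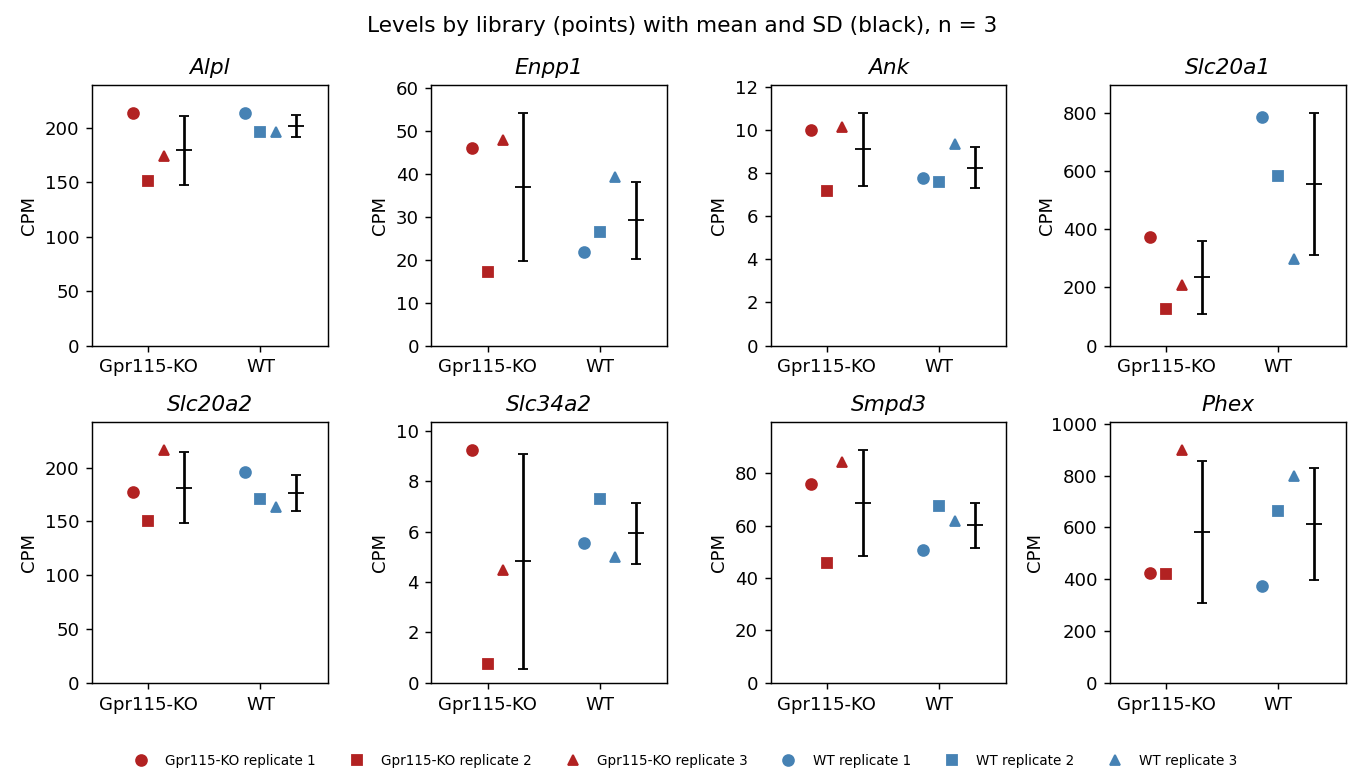
CPM of the 8 tested genes in each of the 3 Gpr115-KO (red) and 3 WT (blue) libraries, with marker shape giving the replicate and black bars the mean and SD (n = 3). Slc20a1 has the widest gap between the group means, 236 CPM in Gpr115-KO against 557 CPM in WT, and the points of the genotypes overlap in every panel.

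Promoter windows of 3 genes are shown first, from RefSeq on GRCm38.p6, each with 250 bases before and 50 after an annotated start, read 5′ to 3′ on the gene's strand. Slc20a1 is shown with both of its starts because it has the largest difference between genotypes, and Enpp1 and Phex because their levels varied widely among libraries of 1 genotype, with coefficients of variation of 46.6% and 47.3% in Gpr115-KO. Slc34a2 varied more (88.2% in Gpr115-KO), from few counts, and its window is not printed. Capitals mark matches on either strand to any of 3 motifs. The first, the core that RUNX factors of bone and tooth bind, is spelled TGTGGT. The second, the GC box bound by Sp factors, is spelled GGGCGG. The last, the TATA box that places the start of transcription in some genes, is spelled TATAAA. The Slc20a1 windows are chr2:129198523-129198822 and chr2:129206846-129207145 (plus strand), that of Enpp1 is chr10:24712110-24712409 and that of Phex chrX:157415237-157415536 (both minus strand).
Slc20a1 first start: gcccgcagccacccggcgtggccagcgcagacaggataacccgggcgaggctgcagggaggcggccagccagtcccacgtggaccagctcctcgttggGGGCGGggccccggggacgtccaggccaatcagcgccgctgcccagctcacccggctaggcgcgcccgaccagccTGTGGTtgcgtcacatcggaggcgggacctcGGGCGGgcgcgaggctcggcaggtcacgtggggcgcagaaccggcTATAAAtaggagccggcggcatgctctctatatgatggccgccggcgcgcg
Slc20a1 second start: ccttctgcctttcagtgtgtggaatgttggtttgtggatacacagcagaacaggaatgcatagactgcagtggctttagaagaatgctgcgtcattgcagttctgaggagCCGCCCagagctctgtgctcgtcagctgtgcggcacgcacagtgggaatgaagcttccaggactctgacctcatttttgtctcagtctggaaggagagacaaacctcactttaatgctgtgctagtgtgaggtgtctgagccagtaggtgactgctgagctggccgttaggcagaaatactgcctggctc
Enpp1: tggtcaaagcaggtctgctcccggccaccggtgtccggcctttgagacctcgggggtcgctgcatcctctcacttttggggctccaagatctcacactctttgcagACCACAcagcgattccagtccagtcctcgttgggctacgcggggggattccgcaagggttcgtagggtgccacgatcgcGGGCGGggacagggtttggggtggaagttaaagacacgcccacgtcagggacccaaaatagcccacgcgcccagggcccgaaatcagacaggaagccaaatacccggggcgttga
Phex: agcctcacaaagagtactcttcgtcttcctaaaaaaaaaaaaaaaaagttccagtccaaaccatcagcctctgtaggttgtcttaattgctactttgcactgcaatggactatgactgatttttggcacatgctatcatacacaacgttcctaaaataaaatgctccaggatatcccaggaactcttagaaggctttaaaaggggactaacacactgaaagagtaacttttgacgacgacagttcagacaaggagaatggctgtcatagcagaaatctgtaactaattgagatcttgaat

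Of these windows the first of Slc20a1 and that of Enpp1 held the RUNX letters, which occur in 16.8% of 32851 promoter windows of that length. The GC box letters, in 35.7% of all windows, stood in the first 3, and TATAAA, in 13.6% of all, only in the first. That TATAAA began at position -1 from the annotated start, so it ran across the start and did not lie ahead of it. Phex held none of these letters, and its window was 38.7% G and C, against 73.0% in the first window of Slc20a1 and a median of 52.7% over all windows. Of the 9 genes, 7 had entries, in 9 windows. A match is a run of letters and not a measured site, and the counts do not separate the starts of a gene.

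Alpl encodes tissue-nonspecific alkaline phosphatase, which splits pyrophosphate outside the cell and so removes the inhibitor and releases phosphate. Alpl (ENSMUSG00000028766; GRCm38 chromosome 4, 137741733 to 137796384, minus strand) had 214, 151 and 174 CPM in the Gpr115-KO libraries, against 214, 196 and 196 CPM in WT. Gpr115-KO replicate 1 was level with the highest WT library, and replicates 2 and 3 lay below all of WT. The log2 fold change was -0.17 (SE 0.17), with a 95% interval of -0.55 to 0.20 (edgeR adjusted p = 0.725). Its WT libraries were close together, with a coefficient of variation of 4.99%, against 17.7% in Gpr115-KO.

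Enpp1, which makes pyrophosphate from nucleotides outside the cell, was spread widely. The gene (ENSMUSG00000037370; chromosome 10, 24637914 to 24712159, minus strand) had 45.9, 17.1 and 47.9 CPM in Gpr115-KO and 21.8, 26.5 and 39.2 CPM in WT. Replicates 1 and 3 of Gpr115-KO were above all of WT and replicate 2 was below all of WT. The fitted log2 fold change was 0.34 (SE 0.38; 95% interval -0.53 to 1.22; edgeR adjusted p = 0.761). With single libraries left out it ran from 0.11, without Gpr115-KO replicate 3, to 0.69, without Gpr115-KO replicate 2 (edgeR adjusted p = 0.936 and 0.476).

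Ank encodes the membrane protein through which pyrophosphate, or the ATP it is made from, leaves the cell. Its levels (ENSMUSG00000022265; chromosome 15, 27466677 to 27594909, plus strand) were 10.03, 7.16 and 10.15 CPM in Gpr115-KO and 7.80, 7.62 and 9.35 CPM in WT. The groups overlapped, with a log2 fold change of 0.14 (SE 0.23; 95% interval -0.37 to 0.66; edgeR adjusted p = 0.845). These levels rest on 67 to 111 counts a library.

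The RNA of Enpp1 stood below that of Alpl in every library. Per kb of exonic length, the level of Enpp1 over that of Alpl was 0.0846, 0.0446 and 0.108 in Gpr115-KO and 0.0400, 0.0531 and 0.0785 in WT. The lowest ratio was in WT replicate 1 and the highest in Gpr115-KO replicate 3, and the groups overlapped.

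Phospho1 and Smpd3 take part in the breakdown of lipids in mineralizing matrix. Phospho1 encodes a phosphatase that frees phosphate from phosphocholine and phosphoethanolamine inside matrix vesicles. Its counts (ENSMUSG00000050860; chromosome 11, 95824499 to 95832140, plus strand) were 2, 0 and 3 in Gpr115-KO and 0, 0 and 1 in WT, so no fold is given. All lay at or under 3 counts, a level of 0.272 to 0.342 CPM that a count of 0 would still allow, counting error only. Of its 2029 exonic bases only 211 belong to no other gene. Zfp652 on the same strand shares 1818 and Abi3 on the opposite strand shares 1708. How the authors counted reads in shared exons is not stated in the labels, so the near absence of counts is not a measure of how much Phospho1 RNA the germs held. Zfp652 was counted at 1298 to 3164 a library and Abi3 at 21 to 54.

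Smpd3 encodes a neutral sphingomyelinase that frees phosphocholine from sphingomyelin and is needed for bone and dentin mineralization in mice. The gene (ENSMUSG00000031906; chromosome 8, 106252548 to 106337988, minus strand) had 75.9, 45.9 and 84.2 CPM in Gpr115-KO, against 50.8, 67.6 and 62.0 CPM in WT. As for Enpp1, replicates 1 and 3 of Gpr115-KO exceeded every WT library and replicate 2 was below every one. Its log2 fold change was 0.19 (SE 0.22; 95% interval -0.30 to 0.68; edgeR adjusted p = 0.771), and ran from 0.0175 without Gpr115-KO replicate 3 to 0.42 without Gpr115-KO replicate 2.

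Slc20a1 showed the largest difference of the set. It encodes a sodium-coupled phosphate carrier that is widely expressed. The gene (ENSMUSG00000027397; chromosome 2, 129198764 to 129211616, plus strand) had 373, 126 and 209 CPM in the Gpr115-KO libraries, against 787, 584 and 299 CPM in WT. Gpr115-KO replicates 2 and 3 lay below all of WT, while replicate 1 lay above WT replicate 3. Averages were 236 ± 126 CPM in Gpr115-KO and 557 ± 245 CPM in WT (SD, n = 3), which puts Gpr115-KO at 42.3% of WT. The log2 fold change was -1.24 (SE 0.46; 95% interval -2.31 to -0.17). It did not pass over all genes tested (edgeR adjusted p = 0.347, DESeq2 adjusted p = 0.344). Over 15 alternatives the adjusted p ran from 0.138, without Gpr115-KO replicate 1, to 0.835, without WT replicate 1, and the direction was negative in each.

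An antisense gene was counted in near-constant proportion to Slc20a1. 9830144P21Rik (ENSMUSG00000087528; chromosome 2, 129205958 to 129230579, minus strand) overlaps the 3′ part of Slc20a1 on the opposite strand. It shares 452 of its 4889 exonic bases with Slc20a1, which has 5580. It had 151, 52.3 and 88.2 CPM in Gpr115-KO, against 343, 250 and 134 CPM in WT, which is -1.32 on the log2 scale (SE 0.46, edgeR adjusted p = 0.325). Its counts were 40.6%, 41.5% and 42.3% of those of Slc20a1 in the Gpr115-KO libraries and 43.6%, 42.8% and 44.6% in WT. Nextera XT libraries carry no strand information, and reads of either gene in the shared stretch cannot be told apart. Another opposite-strand gene at the start of Slc20a1, Gm4430, had 0 to 3 counts a library.

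Slc20a2 encodes the close relative of Slc20a1, and its level was nearly even. It (ENSMUSG00000037656; chromosome 8, 22476788 to 22569612, plus strand) had 177, 151 and 216 CPM in Gpr115-KO and 196, 171 and 163 CPM in WT. The Gpr115-KO libraries spanned the whole WT range. The log2 fold change of 0.04 (SE 0.18; 95% interval -0.35 to 0.43; edgeR adjusted p = 0.951) had, with that of Alpl, the narrowest intervals of the set. Per kb, Slc20a1 stood at 2.35, 0.931 and 1.07 times the level of Slc20a2 in Gpr115-KO and at 4.48, 3.80 and 2.04 times in WT. The ratio of Gpr115-KO replicate 1 lay between WT replicates 3 and 2, and those of replicates 2 and 3 were below all of WT.

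Slc34a2 encodes a phosphate carrier of another family, best known from epithelia of lung and intestine. It was the lowest of the tested genes (ENSMUSG00000029188; chromosome 5, 53038081 to 53071664, plus strand), with 9.23, 0.748 and 4.48 CPM in Gpr115-KO and 5.53, 7.27 and 4.98 CPM in WT. Gpr115-KO replicate 1 was the highest library and replicate 2 the lowest, with 7 counts where the other libraries had 49 to 81. The coefficient of variation was 88.2% in Gpr115-KO, against 20.2% in WT. Its log2 fold change was -0.30 (SE 0.64; 95% interval -1.77 to 1.17; edgeR adjusted p = 0.884), and 0.20 without Gpr115-KO replicate 2. Leaving out Gpr115-KO replicate 1 gave -1.15 instead (edgeR adjusted p = 0.403).

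Phex encodes a membrane endopeptidase of odontoblasts, osteoblasts and osteocytes. Its mutation causes X-linked hypophosphatemia, with poorly mineralized bone and dentin. The gene (ENSMUSG00000057457; chromosome X, 157162075 to 157415312, minus strand) had 425, 420 and 898 CPM in Gpr115-KO and 374, 663 and 798 CPM in WT. The highest library was Gpr115-KO replicate 3 and the lowest WT replicate 1, and each genotype spanned most of the range. The log2 fold change was -0.08 (SE 0.36; 95% interval -0.88 to 0.73; edgeR adjusted p = 0.951). Phex is X-linked, and Xist, the RNA of the inactive X, was at 2.93 CPM in that highest library and between 28.9 and 47.8 CPM in the other 5. WT replicate 3, second in Phex, had 28.9 CPM of Xist. The part of sex in the Phex level was not tested.

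**Figure D2:**
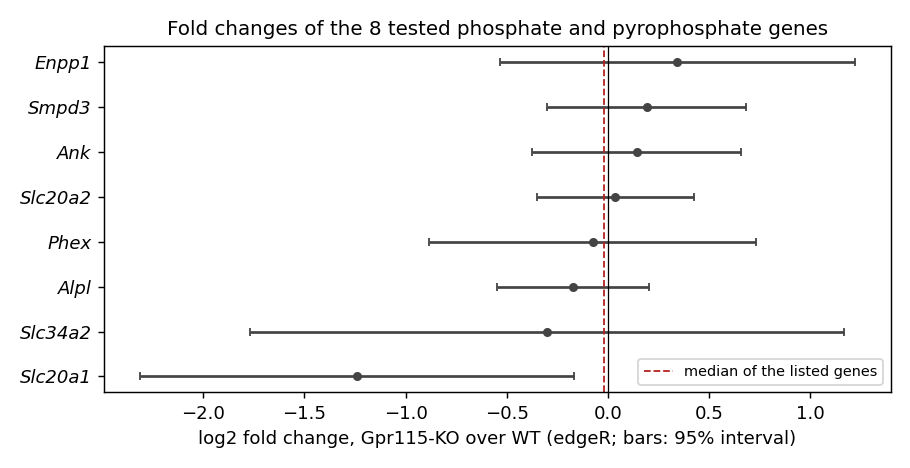
Log2 fold changes of the 8 tested genes, Gpr115-KO over WT, from edgeR, with 95% intervals (bars), 0 (solid line) and the median of the 8 (dashed line). The interval of Slc20a1, -2.31 to -0.17, lies below 0 before adjustment over all genes, and those of the other 7 include 0.

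Per kb of exonic length, the genes covered a wide range of levels. Averaged over the 6 libraries, Phex stood at 94.8 CPM per kb, above 97.4% of tested genes, followed by Slc20a1 at 71.0, Alpl at 47.3, Slc20a2 at 28.8, Smpd3 at 12.3, Enpp1 at 3.22, Ank at 2.41 and Slc34a2 at 1.07 CPM per kb. Slc34a2 was above 21.5% of tested genes. The order of Phex, Slc20a1 and Alpl by mean was not the same in each genotype. In Gpr115-KO the means were 92.3 CPM per kb for Phex, 44.5 for Alpl and 42.2 for Slc20a1, and in WT they were 99.8 CPM per kb for Slc20a1, 97.3 for Phex and 50.1 for Alpl. Neighbours in this order overlapped over the libraries for Phex and Slc20a1, for Slc20a1 and Alpl, and for Enpp1 and Ank. The level of Slc20a1, at 22.6 to 141 CPM per kb, spanned those of Alpl and of Slc20a2 whole. Alpl and Slc20a2, Slc20a2 and Smpd3, Smpd3 and Enpp1, and Ank and Slc34a2 did not overlap.

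**Figure D3:**
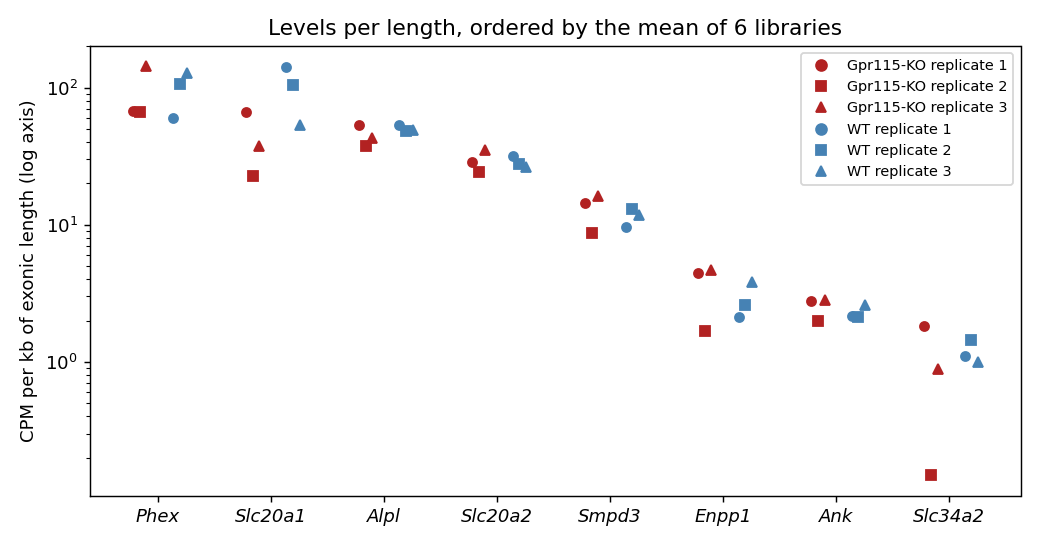
Level per kb of exonic length (log axis) of the 8 tested genes in each library, ordered by the mean of all 6, with Gpr115-KO in red and left of WT in blue. Phex, Slc20a1 and Alpl have the 3 highest means of all 6 libraries (94.8, 71.0 and 47.3 CPM per kb), with Slc20a1 below Alpl in Gpr115-KO (42.2) and above Phex in WT (99.8), and the lowest point is Slc34a2 in Gpr115-KO replicate 2, at 0.149 CPM per kb.

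A single library held most of the low values, a pattern seen after the values were known. In 7 of the 8 genes the lowest of the 6 libraries was Gpr115-KO replicate 2, which was the lowest in 24.9% of all tested genes. The exception was Phex, lowest in WT replicate 1. Over all tested genes, Gpr115-KO replicate 2 was also the highest library in 26.3%, against 0 of the 8. Gpr115-KO replicate 3 was the highest in 5 of 8, and in 16.4% of all tested genes. Gpr115-KO replicate 2 also stood apart in its makeup. Its summed level of 11 skeletal muscle genes was 228 CPM, against 25.4 to 59.3 CPM elsewhere, and that of 12 secretory ameloblast genes was 204247 CPM, against 92838 to 142083 CPM. Maturation ameloblast genes (11 listed) summed to 2057 CPM there, against 5031 to 8702 CPM elsewhere. A single gene of maturing ameloblasts, Odam, was of nearly that size, at 1473 CPM there and no less than 4583 CPM elsewhere. Klk4, another such gene, was not lowest there (53.0 CPM, beside 50.2 CPM for replicate 3 of the same genotype). The low sum is therefore no measure of the listed genes one by one. With Gpr115-KO replicate 2 left out, 6 of the 8 fold changes were positive, beside 8345 of the 16631 genes tested in that fit. The median of the 8 was 0.18 on the log2 scale, beside 0.0012 over all genes, and none was called. Since this library was the lowest in 7 of the 8, leaving it out raises the fold changes of those 7 by construction. The part of this makeup in the levels was not tested.

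Odontoblast genes summed to 47361 to 79447 CPM in Gpr115-KO and 42676 to 91913 CPM in WT, and osteoblast and bone genes to 1709 to 2619 CPM in Gpr115-KO and 1628 to 2833 CPM in WT. Sums of keratinizing epithelium genes (43.5 to 317 CPM in Gpr115-KO, 42.7 to 166 CPM in WT), of pulp and follicle genes (2182 to 3453 CPM in Gpr115-KO, 2690 to 2872 CPM in WT), of endothelial genes (43.2 to 70.1 CPM in Gpr115-KO, 55.4 to 66.1 CPM in WT) and of Schwann cell genes (7.48 to 17.0 CPM in Gpr115-KO, 6.59 to 9.25 CPM in WT) overlapped. Those of osteoclast genes did not, at 61.2 to 85.2 CPM in Gpr115-KO and 49.4 to 58.2 CPM in WT. Of the 8 osteoclast genes listed, 4 passed the count filter. Among them Ctsk was at 36.7 to 45.7 CPM in Gpr115-KO and 21.3 to 31.2 CPM in WT. Acp5 overlapped, at 16.8 to 25.9 CPM in Gpr115-KO and 17.5 to 19.1 CPM in WT. Erythroid genes, at 158.5 to 396 CPM in Gpr115-KO and 139 to 158.4 CPM in WT, and leukocyte genes, at 86.9 to 105 CPM in Gpr115-KO and 76.3 to 86.8 CPM in WT, parted by less than 1 CPM. The part of these sums in the levels of the phosphate and pyrophosphate genes was not tested. No gene of these lists was at 0 in all libraries. The defining enamel gene Amelx had at least 20767 CPM and the defining dentin gene Dspp at least 2913 CPM in each library.

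The profile over the 6 libraries was compared with those of 8744 protein-coding genes, by the root mean square difference of log2 CPM after centring. The nearest gene to Slc34a2 was Odam, which encodes a protein of maturing ameloblasts, at a difference of 0.32, where the profile of Slc34a2 itself had a root mean square of 1.07. Odam had 7942, 1473 and 4583 CPM in Gpr115-KO and 5726, 5703 and 5674 CPM in WT. The nearest gene to Enpp1 was Dspp, which encodes the sialoprotein and phosphoprotein of dentin, at 0.16, where Enpp1 itself had 0.56. Dspp had 7432, 2913 and 8899 CPM in Gpr115-KO and 3745, 5973 and 7542 CPM in WT. Nearest to Slc20a1 was Hcfc1, a transcriptional cofactor gene, at 0.14, where Slc20a1 had 0.88. Hcfc1 had 112, 41.4 and 66.1 CPM in Gpr115-KO and 204, 151 and 92.0 CPM in WT.

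**Figure D4:**
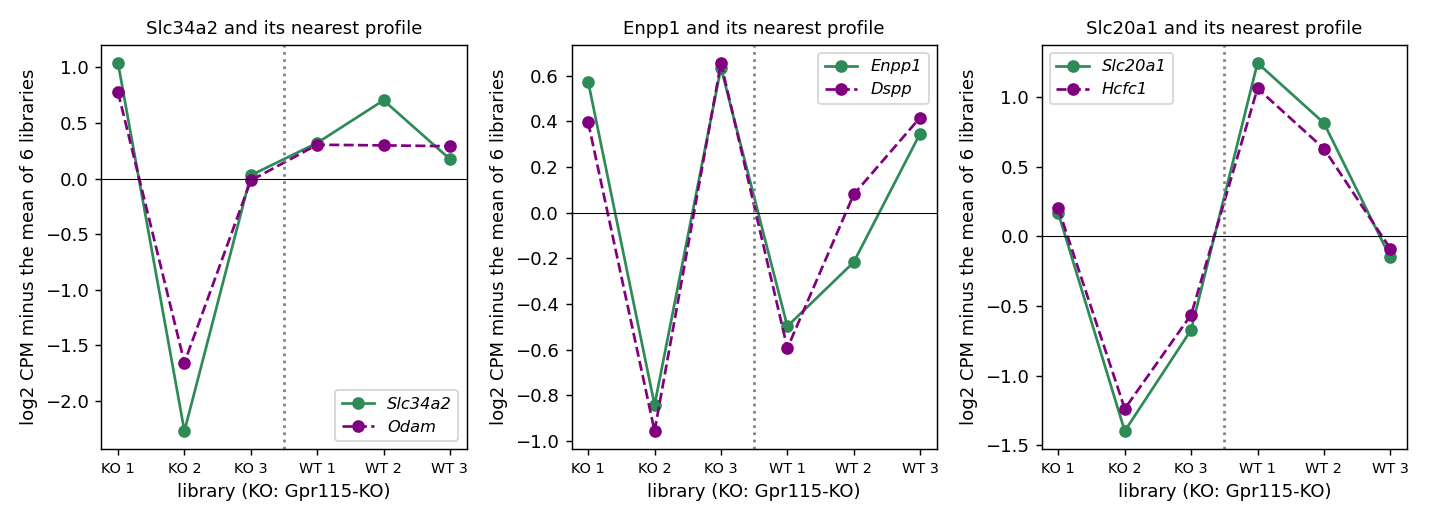
Log2 CPM minus the mean of the 6 libraries for Slc34a2, Enpp1 and Slc20a1 (solid) and the protein-coding gene of the nearest profile to each (dashed), with Gpr115-KO libraries left of the dotted line. Slc34a2 and Odam are both lowest in Gpr115-KO replicate 2 (-2.27 and -1.65), as are Enpp1 and Dspp (-0.84 and -0.96) and Slc20a1 and Hcfc1 (-1.40 and -1.24).

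The second nearest genes were Gpr176 for Slc34a2 (0.45), Cd40 for Enpp1 (0.17) and Fnbp4 for Slc20a1 (0.17). For Phex the nearest was Cpeb4 (0.14), for Smpd3 the nearest were Pxk (0.07) and Acsl1 (0.08), and for Ank Apeh (0.05) and Slc30a6 (0.06). Slc20a2 lay nearest to Wdr6 (0.04) and Ifitm3 (0.06), and Tacc2 (0.04) was among the 2 nearest to Alpl. None of these nearest genes was another of the 8. The distances are a description over 6 libraries, in which many of the 8744 genes can lie close by.

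Beyond these, 42 further genes of phosphate, pyrophosphate and matrix vesicle biology were listed, and 33 passed the count filter. None was called by edgeR, and 15 fold changes were positive and 18 negative. Their median was -0.09 on the log2 scale, beside 0.01 over all genes tested. At an unadjusted p under 0.05 there were 1 higher and 2 lower genes, against 4.85% and 7.48% of all genes. The libraries did not overlap in 2 higher and 4 lower genes, against 8.55% and 8.99% of all genes.

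Ece1 came closest to a call. It encodes endothelin-converting enzyme, a membrane peptidase of the family of Phex, and it had 91.4, 93.5 and 123 CPM in Gpr115-KO, against 216, 186 and 287 CPM in WT. Every Gpr115-KO library was below every WT library, with a mean at 44.7% of that of WT. The log2 fold change was -1.16 (SE 0.20; 95% interval -1.61 to -0.72; edgeR adjusted p = 0.0697). DESeq2 called it (adjusted p = 8.6e-05), the only one of the 33 genes it called, where it called 1.55% of all genes. The adjusted p ran from 1.8e-06 to 0.226 over 15 alternatives. Mme, which encodes neprilysin, a peptidase of the same family, stood at 0.18 on the log2 scale (SE 0.21, edgeR adjusted p = 0.778).

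Sphingomyelinase genes other than Smpd3 were not called either. Smpd4, encoding another neutral sphingomyelinase, had 79.5, 28.3 and 55.7 CPM in Gpr115-KO, against 139, 96.4 and 80.8 CPM in WT, with no overlap (log2 fold change: -0.95, SE 0.35, edgeR adjusted p = 0.333). Smpd1, encoding the acid sphingomyelinase of lysosomes, had 60.6, 66.7 and 75.8 CPM in Gpr115-KO, against 42.6, 48.4 and 60.3 CPM in WT, just short of overlap (0.43, SE 0.17, edgeR adjusted p = 0.352). Entpd5, which encodes a nucleoside diphosphatase, had 17.0, 13.3 and 13.2 CPM in Gpr115-KO, against 21.3, 16.9 and 19.8 CPM in WT (-0.42, SE 0.19, edgeR adjusted p = 0.407). Gpr115-KO replicate 1 of Entpd5 lay just above WT replicate 2.

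Genes of other roles on the list were not called either. Xpr1, encoding a phosphate exporter, had a log2 fold change of -0.16 (SE 0.19), the cytosolic pyrophosphatase gene Ppa1 0.18 (SE 0.15) and the mitochondrial one, Ppa2, 0.27 (SE 0.17). Slc13a5, a citrate carrier gene of enamel, had 0.27 (SE 0.27), and Acp4, an acid phosphatase gene whose mutation impairs enamel in humans, 0.07 (SE 0.32). For these 5 genes edgeR gave adjusted p-values of 0.547 to 0.947. Enpp2 to Enpp6, relatives of Enpp1, ran from -0.52 for Enpp3 to 0.41 for Enpp4.

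**Figure D5:**
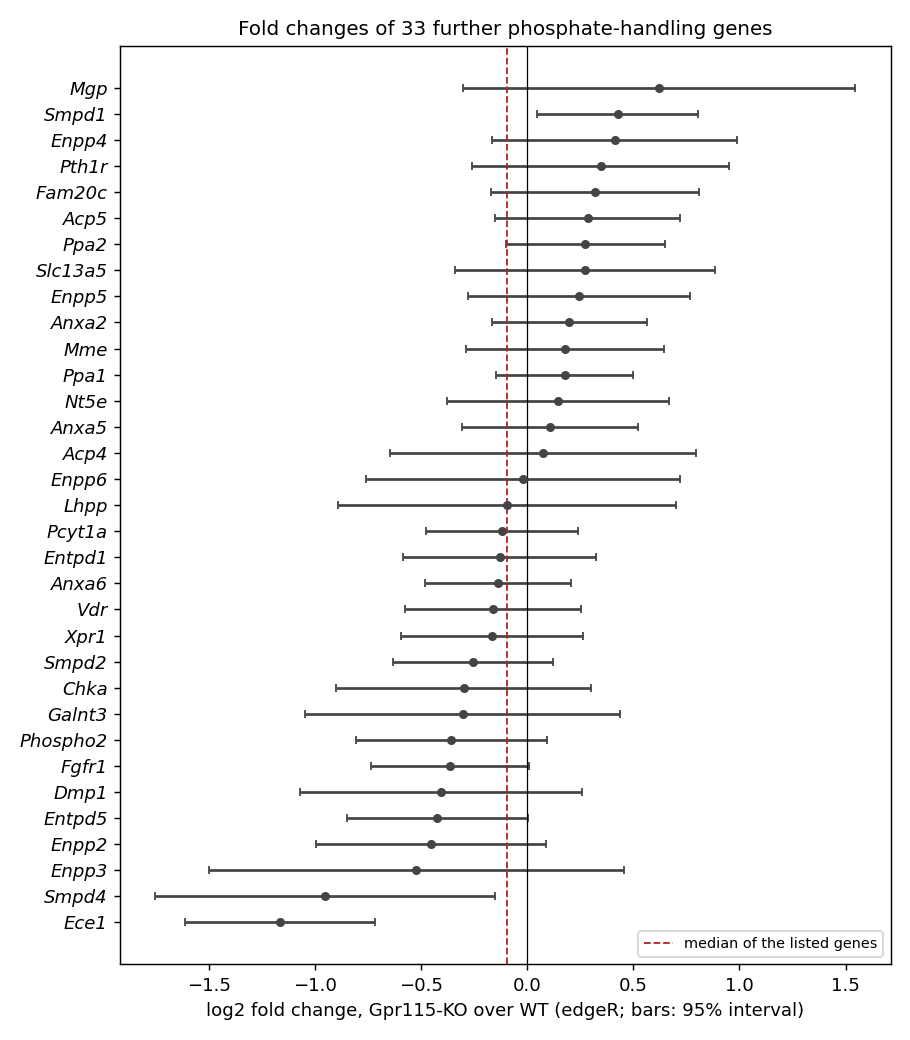
Log2 fold changes of the 33 further genes tested, Gpr115-KO over WT, from edgeR, with 95% intervals (bars), 0 (solid line) and their median of -0.09 (dashed line). Ece1 at -1.16 and Smpd4 at -0.95 lie farthest below 0, and Mgp at 0.62 farthest above.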

How the data were processed

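RNA from 3 Gpr115-KO and 3 WT tooth germ samples was isolated with TRIzol and turned into Nextera XT libraries, per the labels' protocols. STAR 2.5.2a, limma, edgeR, DESeq2 and the build GRCm38 (mm10) are listed in the submitters' processing notes, with no roles. The counting tool and annotation could not be taken from the sources used here. Raw counts were deposited for 48709 genes (and for 15 transgene rows with at most 8 counts a library, kept out). A normalized signal, CPM scaled by TMM, was deposited for 20162 rows. Divided by its smallest step per library, it was whole within 0.01 reads in 100% of values and matched the counts. edgeR on those reads called 6 higher and 18 lower genes, which could only repeat the main result.

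The test was edgeR's (version 4.0.16, under R 4.3.3). The 16011 genes that filterByExpr kept, at a minimum count of 10 and a minimum total of 15, were scaled by TMM and fitted with genotype as the only term in a robust quasi-likelihood model, two-sided, with Benjamini-Hochberg adjustment over all genes and a call under 0.05. The SE is the absolute log2 fold change over the square root of F. CPM use TMM-scaled library sizes without a pseudocount, and log2 CPM for profiles a prior count of 2. A single count was worth 0.0907 to 0.114 CPM. In data simulated for this comparison, 200 of the 16011 genes were changed, and the count filter then kept 15550. Among the changed genes kept, 32.9% of true changes of 1 (log2) and 90.9% of true changes of 2 were called. Of 145 calls 17 were false. Coordinates and exonic lengths are from GENCODE vM21. Library pairs differed by a chi-square per degree of freedom of 15.6 to 87.4, so none was counted as a repeat.

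The genes, lists and tests were chosen with earlier results of these data known. Named were all 9 genes and Adgrf4, the called genes of the list of 42 or else the 4 of smallest p, and for each tested gene the 2 protein-coding genes of mean log2 CPM at least 3 with the nearest profile, of which 2 are not reported here. Mme, Smpd2, Xpr1, Ppa1, Ppa2, Slc13a5, Acp4, Enpp3, Enpp4, Mgp and the genes overlapping a listed gene were named after their values were seen. Alternatives were DESeq2 size factors, library totals, other count filters, DESeq2 1.42.0, limma-voom (limma 3.58.1), the replicate number as a block, the trend on gene length removed and each library left out. The reads recovered from the normalized table were added after the data were seen. They equal the counts, so this alternative, counted with the others, could only repeat the main result.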

Additional observations from a re-analysis of the deposited data

How the results depend on the processing

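None of the 8 phosphate and pyrophosphate genes was called under any alternative run. Their median log2 fold change ran from -0.13 to 0.18 with single libraries left out. Signs turned for Phex on library totals alone (0.028, where the median of all genes moved to 0.09 from 0.01), and with single libraries left out for Phex (-0.53 to 0.16), Slc20a2 (-0.11 to 0.16) and Slc34a2 (-1.15 to 0.20), and the cause was not tested. Slc34a2 gave no value with at least 10 counts required in every library, since it had 7 in Gpr115-KO replicate 2.

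Over all genes, the 6 higher and 18 lower calls became 64 and 179 with DESeq2 and 135 and 365 without the count filter, and 11 were lower on library totals alone. With single libraries left out there were 5 to 10 higher and 7 to 39 lower calls. Of the 33 further genes, 1 was called with DESeq2, 1 without the count filter and 1 under the replicate block, each time Ece1. Their median moved to 0.017 from -0.09 with the length trend removed, where the median of all genes moved to 0.049 from 0.013. The cause of these shifts was not tested.

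The replicate numbers were not taken to pair the samples. Deviations of same-numbered libraries correlated at 0.27, 0.03 and -0.07. Differently numbered libraries were not compared in this way, so these values cannot decide whether the numbers mark pairs. As a block in edgeR, the replicate number gave 18 higher and 54 lower calls. Ece1 had an adjusted p of 0.0155 and Adgrf4 an adjusted p of 0.0254.

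Among the tested genes counts were lowest for Slc34a2 (7 to 81 a library) and Ank (67 to 111). At the simulated recovery of 32.9% for a log2 change of 1, changes of that size can go uncalled.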

Other observations

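Among the 9 listed genes too low to test, a pair had 33 or more counts in 1 library and far fewer in the others. Fgf23, the phosphate-regulating hormone of bone, had 0, 0 and 0 counts in Gpr115-KO and 1, 48 and 0 in WT, so nearly all lay in WT replicate 2. Mepe, a matrix phosphoglycoprotein gene of osteocytes, had 33, 5 and 1 counts in Gpr115-KO and 6, 1 and 8 in WT, with most in Gpr115-KO replicate 1. The intestinal phosphatase gene Alpi and the kidney phosphate carrier genes Slc34a1 and Slc34a3 had 0 to 2 counts a library, and Alppl2, another alkaline phosphatase gene, had 0 in each.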
